A study of Drosophila melanogaster with 4 samples.

Results

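The vacuolar proton pump of the adult *Drosophila* eye was examined through the 32 genes whose symbols start with *Vha*, out of 13964 features in the count matrices. Every such symbol was taken, with no selection on expression. The data were single-cell RNA sequencing (scRNA-seq) of dissociated eyes from the wild-type *Canton-S* strain, in 4 libraries: 1-day, 3-day and 7-day males and 1-day females. Each library was 1 preparation of eyes pooled from many flies, with Actinomycin D, a transcription inhibitor, used while the eyes were taken apart, so each age and each sex rested on a single library. The comparisons were therefore between cell types with the 4 libraries as replicates, and these libraries differ in age or sex as well as in preparation.

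The vacuolar H+-ATPase is a rotary pump that spends ATP to move protons into lysosomes, synaptic vesicles, secretory granules and the pigment granules of the fly eye. Its soluble V1 sector holds the ATP-splitting subunits A and B, the rotor subunits D and F, and the stalk and regulatory subunits C, E, G and H, while its membrane V0 sector holds a ring of subunits c and c'', subunit a with the proton path, subunit d, which joins the ring to the rotor, and the small subunit e. The fly genome carries several genes for many of these subunits, and in yeast and mammals the isoforms of subunit a are known to place the pump on different membranes.

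The libraries held 6335 to 16275 barcodes, of which 5897 to 13788 passed the filters on genes and mitochondrial reads, with a median of 1999 to 6497 unique molecular identifiers (UMIs) per kept cell. Cells were clustered without the *Vha* genes and named only from marker genes, so each cell type below stands for cells that resemble it (for example, repo-positive, "glia-like" cells). R1-6, R7 and R8 photoreceptors, secondary and tertiary pigment cells, neurons and glia were found in all 4 libraries, with 251 to 4204 cells each. Primary pigment cells (59 to 282 cells) and cone cells (20 to 29 cells) were found in the 3 male libraries only. Mixed clusters were high in both the R1-6 rhodopsin and an R7 or R8 rhodopsin but had too few raised markers for a name. They held 4.77 to 9.37% of kept cells per library and entered no class. Clusters with enough raised R7 or R8 markers kept that name even where the R1-6 rhodopsin was high. Clusters that the markers did not name were also left out, with 1.80 to 11.7% of kept cells in the eye and 0.726 to 3.73% outside it. Pairs of libraries shared 9 to 30 barcodes, at most 0.376% of the smaller library, and doublets were not removed. The glial factor *repo* stood at 141 to 151 CPM in glia and at no more than 0.893 CPM in any other class. Only clusters with *repo* at 50 CPM or more could be named glia, so the naming rule largely set this contrast. CPM, used throughout for levels, is a gene's UMIs per 1000000 UMIs of its class, a count of captured 3' ends that does not scale with gene length. Markers of other classes gave a floor: the summed pigment cell markers stood in photoreceptors and neurons at 0.353 to 2.51% of their level in secondary and tertiary pigment cells, and the R1-6 rhodopsin *ninaE* stood in those pigment cells at 1.59 to 8.02% of its R1-6 level. Free RNA, doublets, misplaced cells and low expression were not told apart in this floor.

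Of the 32 genes, 19 reached 20 CPM on average in at least 1 cell class and are described here. The other 13 are further copies of subunits A, D, F, a, c, c'', d or e: 8 of them (*Vha68-3*, *Vha100-4*, *Vha100-5*, *Vha16-2*, *Vha16-3*, *Vha16-4*, *VhaPPA1-2* and *VhaM9.7-d*) had no UMI in any barcode. *Vha36-2* had 38 UMIs, *Vha16-5* had 29, *Vha100-3* and *VhaAC39-2* had 3 each and *Vha14-2* had 2, over all barcodes of the 4 libraries. Each subunit A to H, a to e and the accessory subunit was thus covered by 1 or more expressed genes, and only subunits A, D, a and e were covered by more than 1. Values per library are given below in the order 1-day, 3-day and 7-day males, then 1-day females.

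Neurons held the highest summed level of the pump's genes, 11442 ± 574 CPM (mean ± SD, n = 4 libraries), against 5638 ± 494 CPM in R1-6. R7 summed to 7276 ± 470 CPM, R8 to 6668 ± 538, glia to 6582 ± 802 and secondary and tertiary pigment cells to 5671 ± 348. Cone cells summed to 4912 ± 451 CPM and primary pigment cells to 3139 ± 783 CPM (n = 3 each). The 4 neuron values (11064 to 12295 CPM) lay above every value of every other class, whereas the pigment cell range (5320 to 6103 CPM) overlapped the R1-6 range (4911 to 5976 CPM). The V1 genes summed to 6419 CPM in neurons and 3096 CPM in the secondary and tertiary pigment cells against 2807 CPM in R1-6, and the V0 genes to 4904 CPM in neurons and 2423 CPM in these pigment cells against 2789 CPM in R1-6. These sums are shares of all UMIs of a class, a scale on which all genes shifted by 0.90 (log2) in neurons against photoreceptors, compared with the TMM factors used for the tests. The shift was 0.59 in glia and 0.31 in secondary and tertiary pigment cells against photoreceptors. Against secondary and tertiary pigment cells it was −0.51 in primary pigment cells and 0.97 in cone cells. With TMM factors the median log2 difference of primary from secondary and tertiary pigment cells was −0.09 for pump genes and −0.05 for all genes.

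**Figure D1:**
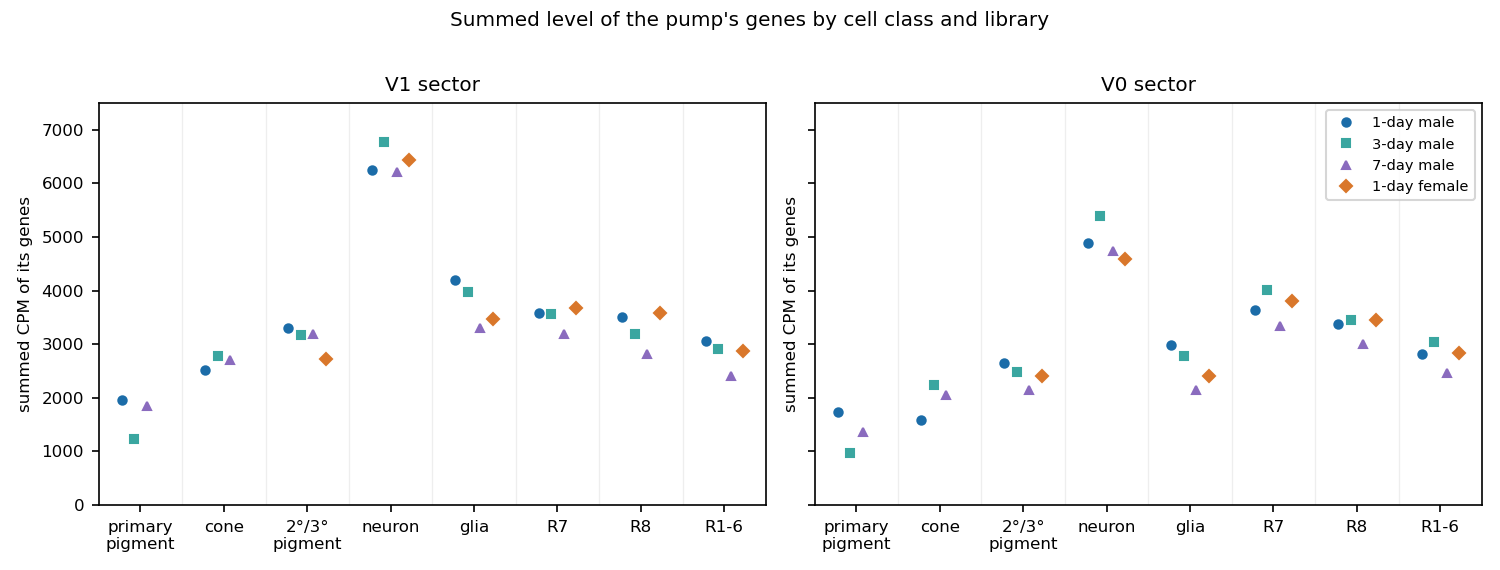
Summed CPM of the V1 genes (left) and V0 genes (right) on the vertical axis, for each cell class on the horizontal axis, with 1 point per library and colour and shape marking the library. Neurons lie above all other classes in both sectors (means of 6419 and 4904 CPM), and primary pigment cells lie lowest (means of 1685 and 1353 CPM). CPM is a share of all UMIs of a class, a scale on which all genes shifted between classes.

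Subunit A, which binds and splits ATP, switched gene between cell types. *Vha68-2* (FBgn0263598; 2L, 12974322 to 12978607, plus strand, in the BDGP6, or dm6, annotation of Ensembl) and *Vha68-1* (FBgn0265262; 2L, 13000770 to 13004107, minus strand) were the only A genes with UMIs. *Vha68-2* levels were 102, 69.8, 65.2 and 158 CPM in the secondary and tertiary pigment cells and 248, 214, 174 and 358 CPM in glia, against 2.60, 0.918, 1.22 and 2.70 CPM in R1-6. The pigment cell and glial ranges did not overlap the photoreceptor range, and neurons (2.33 to 4.17 CPM), R7 (0.212 to 1.34 CPM) and R8 (2.32 to 3.01 CPM) lay with R1-6. *Vha68-2* was higher in secondary and tertiary pigment cells than in the mean of the 3 photoreceptor types by 5.70 ± 0.18 on the log2 scale (SE, edgeR quasi-likelihood test with Benjamini-Hochberg adjusted p = 7.3e-16), and higher in glia by 6.82 ± 0.18 (adjusted p = 9.2e-18, same test). Its level in photoreceptors and neurons was 0.304 to 4.61% of that in pigment cells, beside 0.353 to 2.51% for the pigment marker list. R8 (1.47 to 4.61% against 0.501 to 1.66% for the list) and neurons (1.67 to 4.09% against 0.435 to 2.51%) reached furthest above the list. Medians were 2.82% against 0.815% in R8 and 3.52% against 0.999% in neurons. In R1-6 they were 1.78% against 1.10%, and in R7 0.781% against 0.604%.

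*Vha68-1* ran the other way. It stood at 34.4, 13.5, 25.2 and 23.6 CPM in the secondary and tertiary pigment cells and at 110, 44.8, 36.4 and 27.6 CPM in glia, against 192, 135, 127 and 160 CPM in R1-6. It was lower in these pigment cells than in photoreceptors by a log2 difference of −3.19 ± 0.21 (edgeR quasi-likelihood test, adjusted p = 1.9e-11) and lower in glia by −2.34 ± 0.20 (adjusted p = 1.4e-09, same test). Neurons had the highest level, 590, 422, 402 and 608 CPM, above all values of all other classes. As a share of the A subunit's UMIs, *Vha68-2* made up 79.4 ± 7.12% in secondary and tertiary pigment cells (72.1 to 87.0%) and 81.9 ± 9.69% in glia (69.2 to 92.8%), against 1.16% in R1-6, 0.465% in R7, 1.54% in R8 and 0.570% in neurons. Primary pigment cells had 57.1 to 85.0% and cone cells, on 5 to 19 UMIs per library, 40.0 to 92.9%. The residual *Vha68-1* in pigment cells was 10.1 to 19.9% of its R1-6 level, above the 1.59 to 8.02% of *ninaE* there.

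**Figure D2:**
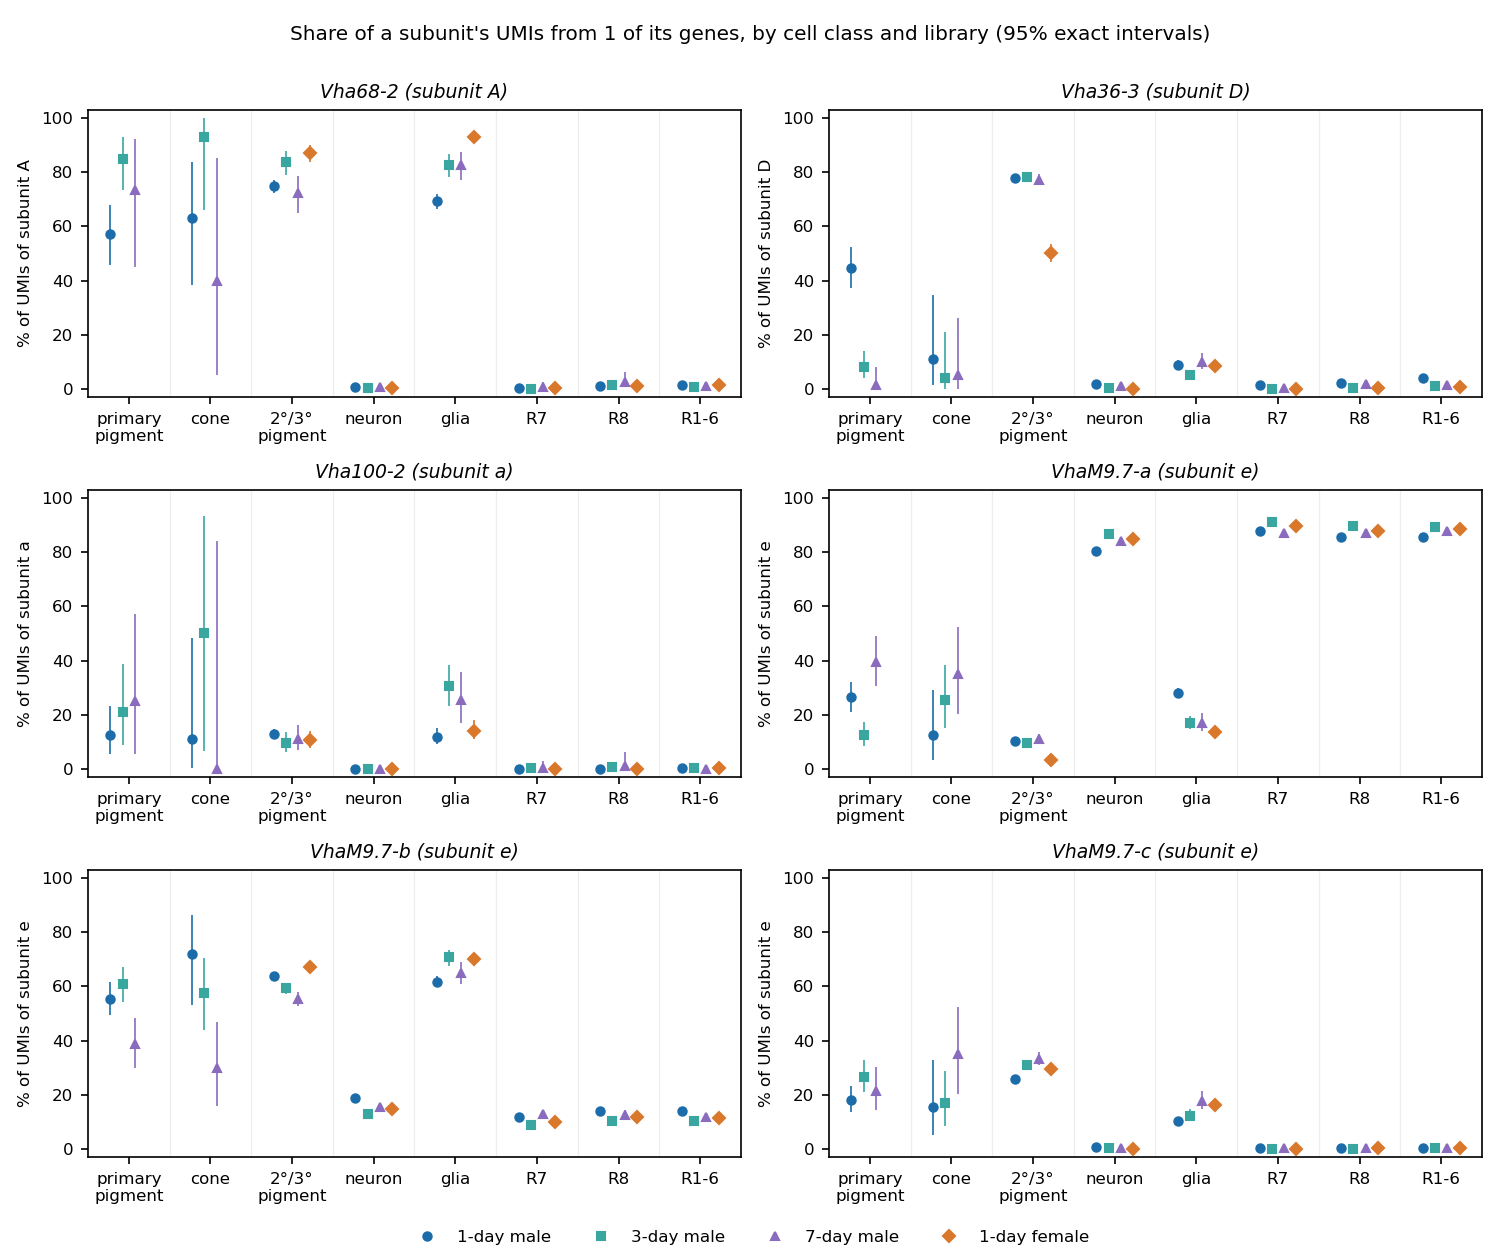
Percent of a subunit's UMIs that came from 1 of its genes (vertical axis), by cell class (horizontal axis), with 1 point per library and bars for 95% exact binomial intervals, which cover counting error only. *Vha68-2* averages 79.4% in secondary and tertiary pigment cells and 81.9% in glia against 1.16% in R1-6, *Vha36-3* averages 70.8% in these pigment cells and 8.14% in glia, and *VhaM9.7-a* averages 87.8% in R1-6 and 8.65% in these pigment cells.

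Subunit D, part of the central rotor, had an isoform that was largely limited to secondary and tertiary pigment cells. *Vha36-3* (FBgn0040377; X, 2579091 to 2580560, minus strand) stood there at 509.5, 643, 682 and 163 CPM, against 11.2, 3.67, 5.32 and 1.74 CPM in R1-6. All 4 pigment cell values lay above every value of every other class, although the 1-day female value (95% exact Poisson interval 148 to 179 CPM, counting error only) was well below the 1-day male value (495 to 524 CPM). Glia had 38.6, 25.4, 40.4 and 32.4 CPM, and neurons had 0.662 to 10.6 CPM. *Vha36-3* was higher in secondary and tertiary pigment cells than in photoreceptors by 6.93 ± 0.32 on the log2 scale (edgeR quasi-likelihood test, adjusted p = 5.6e-14) and higher in glia by 3.02 ± 0.38 (adjusted p = 3.8e-07, same test). Without the 1-day males these differences were 7.56 and 3.78, and without the females that of glia was 2.27. In photoreceptors and neurons its level was 0.132 to 2.20% of the pigment cell level, within the range of the pigment marker list or below it.

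*Vha36-1* (FBgn0022097; 2R, 15541435 to 15542498, plus strand), the D subunit gene of the other cell types, stood at 145, 180, 201 and 162 CPM in the secondary and tertiary pigment cells and at 271, 349, 345 and 285 CPM in R1-6. It was lower in these pigment cells than in photoreceptors by a log2 difference of −1.48 ± 0.09 (edgeR quasi-likelihood test, adjusted p = 3.3e-12), and was 534 to 716 CPM in neurons and 344 to 481 CPM in glia. Secondary and tertiary pigment cells thus kept *Vha36-1* and had *Vha36-3* besides. *Vha36-3* made up 77.9, 78.2, 77.2 and 50.1% of their D subunit UMIs, the female value with an exact interval of 46.8 to 53.5%, which includes an even split. In glia it made up 8.14% on average, in neurons 0.891% and in R1-6 1.78%.

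**Figure D3:**
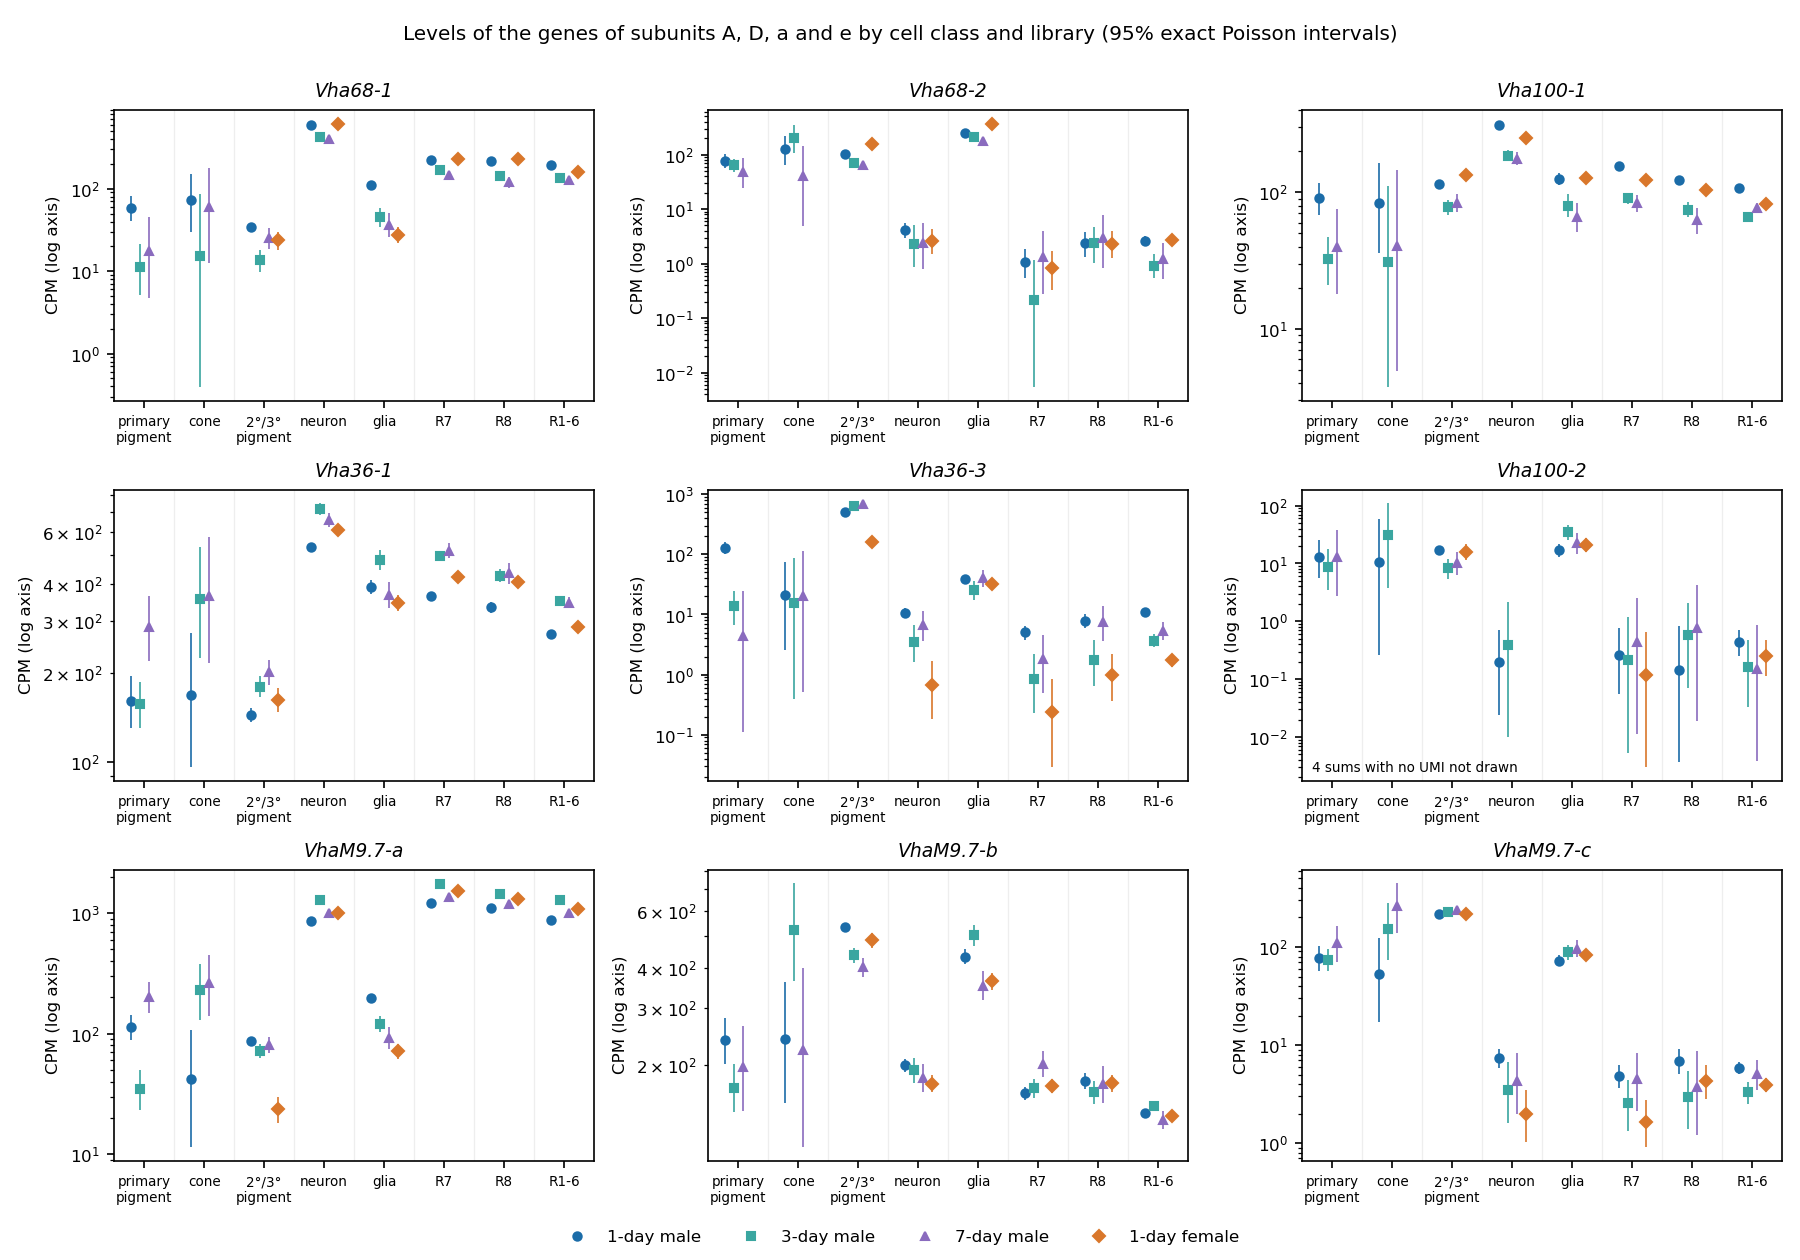
CPM on a log axis (vertical) of the 9 genes that share subunits A, D, a and e, by cell class (horizontal), with 1 point per library and bars for exact 95% Poisson intervals of the UMI counts. *Vha68-2*, *Vha36-3* and *VhaM9.7-c* stand above 60 CPM in the secondary and tertiary pigment cells in all 4 libraries and below 12 CPM in all neuron and photoreceptor sums, and 4 sums of *Vha100-2* with no UMI are not drawn.

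Subunit a, which carries the proton path, was mostly *Vha100-1* (FBgn0028671; 3R, 29131193 to 29137980, plus strand), known for its role at photoreceptor synapses of the fly, in every class. Its level was 116, 77.5, 83.5 and 134 CPM in the secondary and tertiary pigment cells and 311, 185, 177 and 250 CPM in neurons, against 107, 65.9, 77.0 and 81.6 CPM in R1-6. *Vha100-2* (FBgn0028670; 3R, 18390323 to 18399169, minus strand), known from fly epithelia that transport ions, was a minor second gene. It stood at 17.2, 8.31, 10.4 and 15.8 CPM in the secondary and tertiary pigment cells and at 16.9, 35.1, 22.6 and 21.1 CPM in glia, against at most 0.752 CPM in any photoreceptor sum and 2, 1, 0 and 0 UMIs in neurons. It was higher than in photoreceptors in these pigment cells by 5.37 ± 0.33 on the log2 scale (edgeR quasi-likelihood test, adjusted p = 6.1e-12) and in glia by 5.93 ± 0.34 (adjusted p = 1.7e-12, same test). These low photoreceptor counts make the fold uncertain, and *Vha100-2* supplied 11.1 ± 1.38% of the a subunit's UMIs in pigment cells and 20.5 ± 8.94% in glia.

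Subunit e, a small membrane protein of V0, had 3 expressed genes with 3 patterns. *VhaM9.7-a* (FBgn0035521; 3L, 4262705 to 4263464, plus strand) was the gene of photoreceptors and neurons. It stood at 1210, 1739, 1368 and 1521 CPM in R7 and at 856, 1292, 995 and 1003 CPM in neurons, against 879, 1287, 1010 and 1084 CPM in R1-6, and at 1093 to 1433 CPM in R8. In secondary and tertiary pigment cells it stood at 87.5, 71.7, 81.0 and 23.6 CPM, lower than in photoreceptors by a log2 difference of −4.59 ± 0.29 (edgeR quasi-likelihood test, adjusted p = 8.9e-12). In glia it stood at 196.5, 121, 92.5 and 71.6 CPM, lower by −4.0 ± 0.28 (adjusted p = 5.7e-11, same test). The pigment cell values were 2.18 to 9.95% of the R1-6 level, close to the 1.59 to 8.02% of *ninaE*, so the part of RNA from other cells in them cannot be told apart from expression.

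*VhaM9.7-b* (FBgn0028663; 3L, 21539862 to 21541215, plus strand) was found in all classes and led in pigment cells and glia. It stood at 536, 437, 401 and 487 CPM in the secondary and tertiary pigment cells and at 433, 504, 352 and 363 CPM in glia, against 142, 150, 135 and 139 CPM in R1-6. It was higher in these pigment cells than in photoreceptors by 1.19 ± 0.10 on the log2 scale (edgeR quasi-likelihood test, adjusted p = 6.0e-10). *VhaM9.7-c* (FBgn0028664; 3L, 4186018 to 4186865, minus strand) stood at 218, 228, 241 and 215 CPM in the secondary and tertiary pigment cells and at 72.4, 88.1, 96.5 and 83.3 CPM in glia, against 5.81, 3.30, 5.02 and 3.91 CPM in R1-6. The spread of *VhaM9.7-c* among pigment cell libraries was small (225 ± 11.6 CPM), with no overlap between pigment cells, glia and the photoreceptors. It was higher than in photoreceptors in pigment cells by 5.49 ± 0.19 (adjusted p = 1.5e-15) and in glia by 3.84 ± 0.20 (adjusted p = 6.1e-13), both by the edgeR quasi-likelihood test. *VhaM9.7-c* lies inside *Teh2* on the same strand, so reads of the overlap of these genes cannot be told apart.

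In shares of the e subunit's UMIs, secondary and tertiary pigment cells had 61.4% from *VhaM9.7-b*, 29.9% from *VhaM9.7-c* and 8.65% from *VhaM9.7-a*, against 11.8% from *VhaM9.7-b* and 87.8% from *VhaM9.7-a* in R1-6. Glia had 66.9% from *VhaM9.7-b*, 14.1% from *VhaM9.7-c* and 19.0% from *VhaM9.7-a*. R7, R8 and neurons had 84.1 to 88.9% from *VhaM9.7-a*. In the 6 classes found in all libraries, the leading gene was taken for each subunit with several genes in the genome. This gene was the same in all 4 libraries in 48 of 48 pairs of subunit and class. The pairs include the female pigment cells, where the lead for subunit D was within counting error. For subunits F, c, c'' and d, whose other genes had next to no UMIs, no other lead was to be had. Only the pairs of subunits A, D, a and e could have come out otherwise.

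Over all 19 genes, 12 (63.2%) passed the call of an adjusted p under 0.05 and a fold over 2 between secondary and tertiary pigment cells and photoreceptors, 5 higher and 7 lower (edgeR quasi-likelihood test). Of all 7615 genes tested, 49.9% passed, 26.5% higher and 23.4% lower, so the share of pump genes called was not far from that of genes at large, and their median log2 difference was −0.33 against −0.02 for all genes. Without the limit on the fold, 17 of 19 had an adjusted p under 0.05, against 74.5% of all genes. The 5 that were higher were the isoform genes above, *Vha68-2*, *Vha36-3*, *Vha100-2*, *VhaM9.7-b* and *VhaM9.7-c*. The 7 that were lower were *Vha68-1*, *Vha36-1*, *VhaM9.7-a* and 4 subunits with 1 expressed gene each. These 4 were *Vha55*, the B subunit (−1.08 ± 0.09), *Vha44*, the C subunit of the stalk (−1.31 ± 0.09), *VhaSFD*, the regulatory H subunit (−1.22 ± 0.10), and *VhaAC39-1*, the d subunit (−1.10 ± 0.09), with adjusted p of 7.4e-10 or less. With total UMIs as the scale, 9 were called, 6 higher and 3 lower, of which 8 were shared, and the same 4 subunits were no longer called (−0.75 for *Vha55*, −0.99 for *Vha44*, −0.90 for *VhaSFD* and −0.78 for *VhaAC39-1*).

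The remaining subunits showed no called difference between secondary and tertiary pigment cells and photoreceptors. *Vha16-1*, the ring subunit c and the most abundant member, averaged 1195 CPM in these pigment cells against 993 CPM in R1-6, with a log2 difference of −0.32 from photoreceptors. *Vha13*, the stalk subunit G, averaged 1050 CPM against 931 CPM in R1-6 (−0.33), and *Vha14-1*, the rotor subunit F, 522 CPM against 518 CPM (−0.37). The log2 differences of *Vha26*, the stalk subunit E, *VhaPPA1-1*, the ring subunit c'', and *Vha100-1* were −0.13, −0.51 and −0.21. *VhaAC45*, the accessory subunit, stood at 154, 131, 126 and 200 CPM in these pigment cells against 39.5 to 44.7 CPM in R1-6, a log2 difference of 0.98 that missed the fold of the call and reached it on total UMIs (1.31). On total UMIs, which shifted all genes by 0.31 on the log2 scale, *Vha26* (0.20) and *Vha100-1* (0.12) changed sign, while *VhaPPA1-1* (−0.19) and *Vha14-1* (−0.05) did not.

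**Figure D4:**
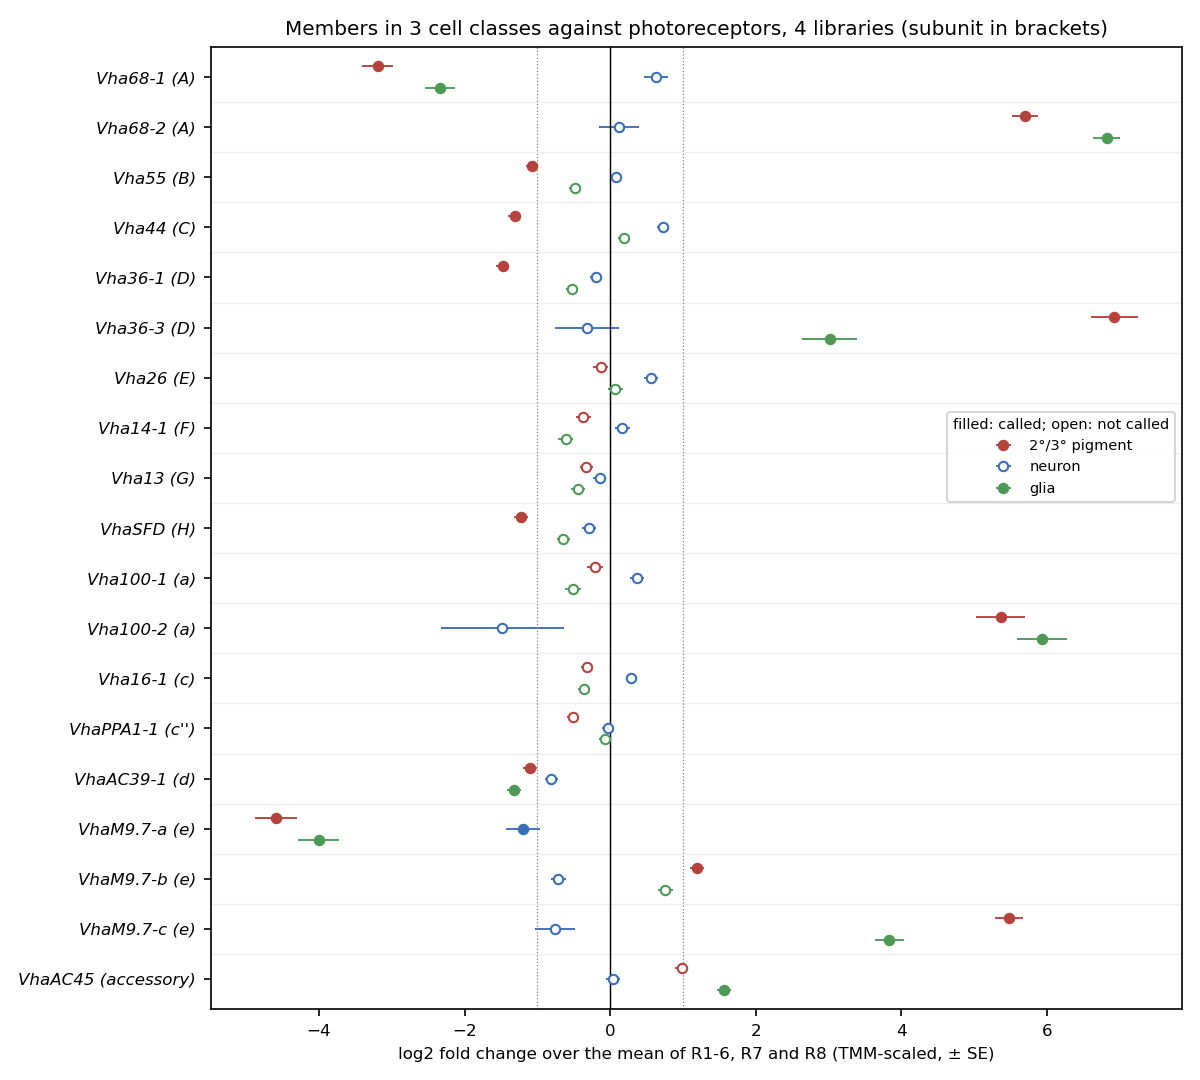
Log2 fold change (horizontal axis, ± SE, n = 4 libraries) of each of the 19 expressed pump genes (vertical axis, subunit in brackets) in secondary and tertiary pigment cells, neurons and glia over the mean of R1-6, R7 and R8, scaled by TMM factors. Filled points passed the call and open points did not, with dotted lines at a fold of 2 either way: the points beyond 5 are *Vha68-2* and *Vha100-2* in pigment cells and glia and *Vha36-3* and *VhaM9.7-c* in pigment cells.

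In glia, 8 of 19 (42.1%) were called against photoreceptors, 5 higher and 3 lower, near the 47.7% of all genes (28% higher and 19.7% lower), and 17 of 19 without the limit on the fold, against 72.3%. Beyond the isoform genes, *VhaAC45*, the accessory subunit, was higher in glia at 264, 284, 243 and 285 CPM, against 39.5 to 44.7 CPM in R1-6 and 65.5 to 87.8 CPM in R7. Its log2 difference from photoreceptors was 1.56 ± 0.09 (edgeR quasi-likelihood test, adjusted p = 2.2e-12), and the glial and photoreceptor values did not overlap. *VhaAC39-1*, the d subunit, was lower in glia by −1.32 ± 0.09 (adjusted p = 6.7e-11, same test), with 233 CPM on average against 371 CPM in R1-6 and 418 CPM in R7. On total UMIs, which shifted all genes by 0.59, the fall of *VhaAC39-1* was no longer called, *VhaM9.7-b* was called higher (1.34), and the other 7 genes kept their call. Markers of other classes were also found in glia. *ninaE* stood there at 12643, 7401, 5438 and 5991 CPM. The neuronal gene *fne* stood there at 138, 50.0, 89.6 and 21.8 CPM, against 1457 to 1861 CPM in neurons. The source of these counts was not tested, nor was the part of RNA from other cells in the glial *Vha68-1* and *VhaM9.7-a*. The blood cell marker *Hml* stood in glia at 3.62, 64.9, 0 and 0 CPM. The part of blood cells in the glial pump genes, *Vha100-2* among them, was not tested. The 9 markers of secondary and tertiary pigment cells summed to 34.7 to 45.1% of their pigment cell level in glia, and the part of pigment cell RNA in the glial *Vha68-2*, *Vha36-3* and *VhaM9.7-c* was not tested. Among the 9, *w*, *bw*, *CG17572*, *CG14823* and *Obp19c* stood in glia at no more than 3.30% of their pigment cell level in any library, while *Irk2* stood at 126 to 164%, *santa-maria* at 69.2 to 106%, *Ssk* at 2.53 to 41.5% and *Npc2b* at 8.08 to 24.2%. *Vha68-2* stood there at 226 to 307%, *VhaM9.7-c* at 33.2 to 40.1% and *Vha36-3* at 3.95 to 19.9% of their pigment cell level.

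Neurons had more of most V1 and V0 subunits than R1-6 by CPM. Relative to other genes, no pump gene was called higher in neurons than in photoreceptors, though some were higher by less than the fold of the call. *Vha16-1* averaged 2753 CPM in neurons against 993 CPM in R1-6, *Vha13* 1805 against 931 CPM, *Vha14-1* 1143 against 518 CPM, *Vha55* 789 against 367 CPM, *Vha26* 773 against 225 CPM and *Vha44* 500 against 130 CPM. On the scale that balances all genes, 1 of 19 was called against photoreceptors, where 42.1% of all genes were (24.8% higher and 17.4% lower). That gene was *VhaM9.7-a*, lower by −1.20 ± 0.23 (edgeR quasi-likelihood test, adjusted p = 9.4e-05), and its direction was the same but the difference small on total UMIs (−0.28). Values for *Vha44*, *Vha68-1* and *Vha26* were 0.73, 0.63 and 0.56, below the fold of the call, and 11 genes had an adjusted p under 0.05 when no fold was asked for, against 70.8% of all genes, with 11 also at an unadjusted p under 0.05. On total UMIs, all genes shifted by 0.90 toward neurons and 6 pump genes were called higher: *Vha44* (1.65), *Vha68-1* (1.55), *Vha26* (1.48), *Vha100-1* (1.28), *Vha16-1* (1.21) and *Vha14-1* (1.08). The calls in neurons thus depended on the scale, and 87.69% of all genes called were higher in neurons on total UMIs, against 58.76% with TMM factors.

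Each gene was also asked whether it was called higher in 1 class than in the mean of the other 5 classes and highest there in every library. Primary pigment cells and cone cells, found in the male libraries only, did not enter this rule. Secondary and tertiary pigment cells had 2 such genes, *Vha36-3* (log2 difference 6.39 ± 0.26) and *VhaM9.7-c* (4.87 ± 0.16), where 11.1% of all genes met this for pigment cells. Glia had 2, *Vha68-2* (5.66 ± 0.15) and *VhaAC45* (1.36 ± 0.08), against 10.7% of all genes. Neurons had 1, *Vha68-1* (1.74 ± 0.14), against 20.8%, and R7 had 1, *VhaM9.7-a* (2.04 ± 0.18), against 1.29%. Adjusted p was 1.1e-08 or less for each of these 6 by the edgeR quasi-likelihood test, and for R1-6 (1.93%) and R8 (0.67%) no pump gene met the rule, with 14 and 12 of 19 at an unadjusted p under 0.05. For *VhaM9.7-a* the lead of R7 over R8 was small, 1210 against 1093 CPM in the 1-day male and 1521 against 1297 CPM in the 1-day female library. Cone cells reached past the named class for *VhaAC45*, at 203 to 324 CPM against 243 to 285 CPM in glia. They also did for *VhaM9.7-c*, at 52.5 to 263 CPM against 215 to 241 CPM in secondary and tertiary pigment cells.

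Few pump genes differed between the photoreceptor types. *ninaE* stood at 27.3 to 49.7% of its R1-6 level in R7 and at 32.1 to 67.1% in R8. The part of R1-6 RNA in the R7 and R8 sums was not tested. Between R7 and R1-6, 2 of 19 were called, both lower, where 10.7% of all genes were (4.6% higher and 6.09% lower): *Vha68-2* (−1.68 ± 0.36, adjusted p = 0.0015) and *Vha36-3* (−1.76 ± 0.52, adjusted p = 0.016), by the edgeR quasi-likelihood test. The call of *Vha36-3* was lost without the 3-day males (−1.68) or the 7-day males (−1.76), and its difference was −2.52 without the 1-day males. Levels were low, 0.212 to 1.34 CPM for *Vha68-2* in R7 against 0.918 to 2.70 CPM in R1-6, and in R7 *Vha68-2* was 0.304 to 2.05% of its pigment cell level, where the pigment marker list was 0.353 to 1.05%. Between R8 and R1-6 none was called by edgeR or by DESeq2 (8.39% of all genes by edgeR, 4.86% higher and 3.53% lower, with 4 pump genes at an unadjusted p under 0.05). Between R7 and R8 only *Vha68-2* was called (−1.57 ± 0.42, adjusted p = 0.039, against 2.15% of all genes, 1.18% higher and 0.972% lower), and not when any 1 library was left out (−1.84 to −1.31). Without the limit on the fold, 4 were called for R7 against R1-6 (28.8% of all genes), 3 for R8 against R1-6 (25.6%) and 1 for R7 against R8 (3.74%).

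Primary and secondary or tertiary pigment cells differed in the D subunit. *Vha36-3* stood at 130, 13.7 and 4.39 CPM in primary pigment cells of the 1-day, 3-day and 7-day males (80, 11 and 1 UMIs), against 509.5, 643 and 682 CPM in the secondary and tertiary pigment cells of the same libraries. It was the only 1 of 19 called, lower by −3.45 ± 0.45 on the log2 scale (edgeR quasi-likelihood test, adjusted p = 3.0e-06), where 17.3% of all genes were called, 9.44% higher and 7.91% lower, and 7 were called without the limit on the fold, against 22.8%. Without the 1-day males, which had the highest primary value, the log2 difference was −4.96. Its share of D subunit UMIs in primary pigment cells was 44.7, 8.03 and 1.52%. The summed markers of secondary and tertiary pigment cells stood in primary pigment cells at 30.1, 6.13 and 9.02% of their level in secondary and tertiary cells, beside 25.5, 2.12 and 0.643% for *Vha36-3*, and all 9 markers reached 10% or more in some library. The part of RNA from those cells in the *Vha36-3* of primary pigment cells was not tested. *Vha68-2* (77.8, 63.3 and 48.3 CPM) and *Vha100-2* (13.0, 8.69 and 13.2 CPM) stood there near their levels in secondary and tertiary pigment cells. On total UMIs, which shifted all genes by −0.51, 5 genes were called lower, with *Vha36-3* at −3.92.

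Cone cells, on 20 to 29 cells per library, had 9 of 19 (47.4%) called lower than secondary and tertiary pigment cells, where 29.7% of all genes were called, 10.1% higher and 19.5% lower, and 11 were called without the limit on the fold, against 32%. The median over the pump genes was −0.99 against −0.55 for all genes. *Vha36-3* fell most, −6.27 ± 0.73 (edgeR quasi-likelihood test, adjusted p = 4.0e-07), on 2, 1 and 1 UMIs in cone cells. The others were *VhaSFD* (−1.82), *Vha100-1* (−1.79), *Vha14-1* (−1.70), *VhaM9.7-c* (−1.69, and −2.28 without the 7-day males), *Vha16-1* (−1.49), *VhaM9.7-b* (−1.46), *Vha13* (−1.15) and *Vha26* (−1.08), of which *Vha13* was no longer called without the 1-day males (−0.97) and *Vha26* without the 3-day males (−0.89). On total UMIs, which shifted all genes by 0.97, *Vha36-3* alone was called lower (−5.34) while *Vha44* (1.11) and *VhaAC45* (1.06) were called higher. *VhaAC45* stood at 315, 324 and 203 CPM in cone cells against 154, 131 and 126 CPM in the secondary and tertiary pigment cells of the same libraries.

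Within classes, *Vha36-3* was high in every pigment cell cluster and uneven across glia. The 1-day male pigment class held a cluster of shallow cells (1453 cells with a median of 820 UMIs), where *Vha36-3* stood at 410 CPM against 536 CPM in the deeper cluster. In the 3-day males its 2 pigment clusters had 566 and 707 CPM and in the 7-day males its 3 clusters had 472, 622 and 790 CPM. In glia, *Vha36-3* stood at 34.6 to 72.0 CPM in the clusters led by *CG14495* or *Ect3* and at 0 to 14.5 CPM in the other glial clusters. The female pigment class was a single cluster of 386 cells.

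Other genes of the pump's setting were taken from lists of assembly factors, pigment granule genes and lysosomal genes. Of 7 assembly and regulation genes, 2 were lower in secondary and tertiary pigment cells than in photoreceptors and none was higher, with a list median of −0.42 against −0.02 for all genes, of which 23.4% were lower and 26.5% higher. *CG31030*, a fly protein related to the accessory subunit AC45, stood at 49.5, 31.1, 45.5 and 15.5 CPM in these pigment cells and at 123, 52.3, 38.4 and 34.5 CPM in glia, against 453 to 518 CPM in R1-6 and 529 to 723 CPM in neurons. It was lower in pigment cells by −4.34 ± 0.27 (edgeR quasi-likelihood test, adjusted p = 8.1e-12) and in glia by −3.84 ± 0.27 (adjusted p = 4.6e-11). The ranges of pigment cells and glia did not overlap those of R1-6 and neurons, as for *VhaM9.7-a*, while *VhaAC45* was highest in glia among these classes. The other gene called lower in pigment cells was *Rbcn-3B* (−1.47), part of the rabconnectin complex that assembles the pump, and *mtd*, a TLDc domain protein, was called higher in neurons (1.56).

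Of the 12 listed genes that build or name pigment granules, 11 were tested, and 2 were higher and 2 lower in secondary and tertiary pigment cells than in photoreceptors, with a median of −0.19, beside the same shares of all genes. *HPS4*, a granule gene, stood at 42.9, 19.1, 21.7 and 43.1 CPM in these pigment cells (3.05 ± 0.15, adjusted p = 1.1e-13, edgeR quasi-likelihood test), and *p* at 73.6, 62.8, 47.9 and 117 CPM (1.32 ± 0.14, adjusted p = 4.4e-08). *g*, a subunit of the AP-3 sorting complex, was lower in these pigment cells (−2.0 ± 0.17) and higher in neurons (1.56 ± 0.12), and *ca* was lower in pigment cells (−1.24). Of 13 lysosomal symbols, *CtsD*, *CtsL1* and *CtsB* are other names of the listed *cathD*, *Cp1* and *CtsB1*, and 9 genes were tested. Of these, 2 were higher and 3 lower in pigment cells (median −0.68), 4 higher and 1 lower in glia (median 0.64) and 6 lower and none higher in neurons (median −1.21), against medians of −0.02, 0.03 and 0.08 for all genes. Of all genes, 26.5% were higher and 23.4% lower in pigment cells, 28% higher and 19.7% lower in glia, and 24.8% higher and 17.4% lower in neurons. The lists were counted with TMM factors only. On total UMIs all genes shifted by 0.90 in neurons, 0.59 in glia and 0.31 in pigment cells, and list counts on that scale were not made. *spin*, a lysosomal carrier protein, stood at 299, 211, 207 and 544 CPM in glia against 9.78 to 15.3 CPM in R1-6 (3.97 ± 0.19, adjusted p = 7.5e-14), and *Cp1*, a lysosomal cathepsin, was higher in both pigment cells (2.18 ± 0.18) and glia (1.98 ± 0.18), by the same test.

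With age and sex there was 1 library per group and no test. Between the 7-day and 1-day male libraries, 0 of 15 pump genes at 20 CPM or more in R1-6 differed by 2-fold or more (16.5% of all genes did), and likewise 0 of 15 in R7 (17.9%), 0 of 18 in secondary and tertiary pigment cells (15.5%) and 0 of 15 in neurons (13.5%). In R8, 1 of 15 did (17%): *Vha26* stood at 423, 285 and 210 CPM in the 1-day, 3-day and 7-day males, just past the limit, and it ran alike in R7 (379, 279.5 and 212 CPM) and R1-6 (280.4, 208 and 152 CPM). In glia, 2 of 19 did (16.2%), *VhaM9.7-a* (196.5, 121 and 92.5 CPM) and *Vha68-1* (110, 44.8 and 36.4 CPM). *ninaE* in glia stood at 12643, 7401 and 5438 CPM over the same ages, and its part was not tested. Median ratios were 0.720 for pump genes and 0.890 for all genes in glia, 0.949 and 1.06 in neurons, 0.832 and 1.14 in secondary and tertiary pigment cells, and 0.784 and 0.839 in R1-6.

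Between 1-day females and 1-day males, *Vha36-3* (163 against 509.5 CPM) and *VhaM9.7-a* (23.6 against 87.5 CPM) were lower by more than 2-fold in secondary and tertiary pigment cells, 2 of 18 pump genes where 8.03% of all genes differed so. *ninaE* was also lower in the female pigment class, 2384 against 10142 CPM. In glia, 2 of 19 pump genes were lower in the female library, where 24.7% of all genes differed: *VhaM9.7-a* (71.6 against 196.5 CPM) and *Vha68-1* (27.6 against 110 CPM). No pump gene differed by 2-fold in R1-6, R7, R8 or neurons, where 9.39, 7.61, 6.4 and 5.82% of all genes did.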

How the data were processed

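Gene-by-cell matrices of raw UMI counts for 4 libraries were deposited, made by the authors with Cell Ranger 6.0.1 on dm6. Cells were kept by the study's limits on genes and mitochondrial share. Each library was normalised with SCTransform (Seurat 5.3.0) and clustered without the *Vha* genes (50 components, resolution 0.8), and clusters were named from markers. UMIs were summed per library and class with 10 cells or more, and sums were tested with edgeR 4.0.16 (quasi-likelihood, TMM factors, low counts filtered, library as block, Benjamini-Hochberg over all genes tested). A call needed an adjusted p under 0.05 and a fold over 2. Genes at 20 CPM or more in a class mean were described. Members and lists were chosen with earlier results of these data known. P-values do not cover the grouping of cells, and the replicates differ in age and sex. Shares have exact binomial and levels exact Poisson intervals, at 95%, for counting error only. Alternatives were other scalings and filters, DESeq2 1.42.0, no block, other clusterings, removal of the highest doublet scores (scrublet, scanpy 1.11.5), subtraction of free RNA and leaving out each library. Symbols were matched to Ensembl BDGP6 annotation by identifier, *Vha44* by symbol. Tests were tried first on simulated counts with planted changes of 3-fold and 4-fold. For cone cells against secondary and tertiary pigment cells, 24.35% and 31.44% of these were recovered, and 9.615% and 7.576% of calls were false. For primary against secondary and tertiary pigment cells, 57.95% and 82.9% were recovered. The other simulated comparisons recovered 87.24 to 96.48%. The planted changes were as many up as down, in a small share of genes, with no other difference between classes. In the data up to 49.9% of genes were called, so the simulation does not cover comparisons with many differences or a shift of scale. Genes named are the 19 members that passed the level rule, list genes that were called, and cell markers.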

Additional observations from a re-analysis of the deposited data

Results flagged for a closer look

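In 114 groups of 4 libraries (a pump gene in a cell class), 2 had 1 library far from the other 3, fewer than the 5.7 that chance would give, since chance singles out about 1 in 20 groups. *Vha68-2* in R8 stood at 3.01 CPM in the 7-day males and between 2.32 and 2.34 CPM in the other libraries, 1.47 to 4.61% of its level in secondary and tertiary pigment cells. *Vha14-1*, the rotor subunit F, stood in R7 at 637 CPM in the 3-day males and between 552 and 564 CPM in the other libraries.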

How the results depend on the processing

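Of 34 called fold changes, 17 kept their call in every alternative that gave them a value and none changed direction: of 534 values, 490 stayed on their side of the threshold and 44 did not. The count of genes called in secondary and tertiary pigment cells (12) lay between 9 and 17. Without the fold limit the counts were 11 in neurons (1 with it), 17 in glia (8), 4 in R7 against R1-6 (2), 3 in R8 against R1-6 (0), 7 in primary pigment cells (1) and 8 specific to neurons (1). With total UMIs as the scale, chosen after the data were seen, they were 6 in neurons, 5 in primary pigment cells, 3 in cone cells (9 with TMM factors) and 7 specific to neurons. That scale moved the share of all calls that were higher to 63.44% in pigment cells (53.1% with TMM factors), 77.69% in glia (58.71%), 77.47% in R7 against R1-6 (43%), 85% in R8 against R1-6 (57.9%), 22.77% in primary pigment cells (54.4%) and 74.63% in cone cells (34.2%). For the specific genes it gave 10.84% in R1-6 (41.39%), 21.6% in R8 (31.86%), 77.2% in neurons (52.24%) and 74.62% in glia (60.26%). With DESeq2 size factors the share was 53% for R7 and 70.3% for R8 against R1-6, 49.59% in cone cells and 30.2% for genes specific to R1-6.

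Calls between photoreceptor types rested on few UMIs. For R7 against R1-6, 1 gene was called without the library block, with the *Vha* genes kept in the clustering, with free RNA subtracted and with mixed clusters given to R7 or R8, and 1 to 3 with a library left out. For R7 against R8, none was called in those same alternatives, with all genes that had 1 UMI, with clustering of log-normalised counts, or with any library left out (0 to 0). For R8 against R1-6, clustering of log-normalised counts gave 1. In neurons, 2 were called with all genes that had 1 UMI, and 1 to 2 with a library left out, 2 of them without the 1-day males. Genes specific to neurons numbered 2 with doublets removed or free RNA subtracted. In primary pigment cells, 2 were called at resolution 1.2, with doublets removed, with free RNA subtracted, or with the shallow pigment clusters left out (chosen after the data were seen). The same gene led a subunit in all libraries in 47 of 48 pairs with the *Vha* genes kept in the clustering or with doublets removed. These pairs again include the subunits with 1 expressed gene, where no other lead was to be had. The cause of these changes was not tested. Depth limits the cone cells (20 to 29 cells per library) and *Vha36-3* in primary pigment cells (1 to 80 UMIs).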

Other observations

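Some clusters that the markers did not name carried high levels of 2 pump genes, and were chosen after these values were seen. In 4 clusters of the male libraries led by *CG12655* (25 to 123 cells), *VhaM9.7-b*, a subunit e gene, stood at 999.5 to 1285 CPM, and *VhaAC45*, the accessory subunit, at 535 to 803 CPM. The highest named class means were 465 CPM for *VhaM9.7-b* in secondary and tertiary pigment cells and 280 CPM for *VhaAC45* in cone cells. *Vha36-3* was also present in unnamed clusters, at 372 CPM in 905 cells of the 1-day male library and at 243 CPM in a cluster of the 3-day male library.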
